A study of Mus musculus with 16 samples.

Results

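Ornithine decarboxylase 1 (Odc1), S-adenosylmethionine decarboxylase 1 (Amd1), spermidine synthase (Srm), spermine synthase (Sms), antizyme inhibitor 1 (Azin1), spermidine/spermine N1-acetyltransferase 1 (Sat1), spermine oxidase (Smox) and polyamine oxidase (Paox) make, regulate or break down the polyamines, and their transcripts were measured in mouse tibialis anterior under 4 diet regimes. The 8 genes were found by matching the RefSeq accession of each array probe to a gene symbol, which gave 14 probes. They are 8 of the 24832 genes tested. All 14 probes were well above background on all 16 arrays, so every gene was measured in every sample.

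Polyamines are small positively charged molecules that bind nucleic acids and are needed for translation and cell growth. Odc1 makes putrescine from ornithine, and Srm and Sms add aminopropyl groups to it to form spermidine and then spermine, using the decarboxylated S-adenosylmethionine that Amd1 supplies. Azin1 binds antizyme, the protein that takes Odc1 to the proteasome, and so frees Odc1. In breakdown, Sat1 acetylates spermidine and spermine, Paox oxidises the acetylated forms, and Smox oxidises spermine directly. In skeletal muscle of mice, Smox is known for the fall of its transcript in atrophy.

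Tibialis anterior is a fast muscle at the front of the lower leg. The offspring of dams with 50% less food during week 3 of gestation (undernourished) and of dams without that restriction (control) were either calorie restricted (CR) or fed ad libitum (AL). The 4 groups (undernourished CR, control CR, undernourished AL, control AL) each came from 8 mice whose RNA was joined into 4 pools of 2 mice, with 1 array per pool and 16 arrays in all. The labels used here give no strain, sex or age, do not name the pools' mice or litters, and do not give the degree or length of calorie restriction. The p-values therefore measure the spread between pools, and for maternal diet they would be too small if pools of a group share litters.

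Values are log2 signals relative to each array's 75th percentile. A probe has its own brightness, so levels are compared between arrays and never between genes. Between 66.4% and 78.5% of the spots of an array were well above background, and arrays of a group correlated with each other at 0.959 to 0.992 over genes. AL arrays lay on slides 1 and 2 and CR arrays on slides 3 and 4, scanned on different days, so calorie restriction and scan day cannot be told apart. Each slide held 2 arrays of either maternal diet.

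All arrays carried muscle fibre transcripts (median of 10 markers between 8.76 and 9.51), but arrays differed in transcripts of other tissues. The median of 20 brain markers lay between -6.67 and -5.91 on the undernourished CR arrays and between -6.46 and -6.13 on the control CR arrays. It lay between -2.45 and -1.46 on the undernourished AL arrays, and at 0.74, 0.44, -1.61 and -1.95 on control AL replicates 1 to 4. Of these 20 markers, 4 were not well above background on any CR array and 8 were so on all of them. The median of 12 skin markers was 0.35, 1.53 and -0.07 on control AL replicates 1 to 3 and -1.53 on undernourished CR replicate 2, against -4.15 to -1.74 on the other arrays. The median of 7 liver markers was -0.90 on undernourished AL replicate 3 and -5.48 to -3.93 elsewhere. In control offspring 5 of 7 fibroblast and tendon markers were called lower on CR arrays and 1 higher, and 7 of 9 leukocyte markers lower. Of all genes, 15.1% were called lower and 16.8% higher there. In undernourished offspring 2 of 7 were called lower and 1 higher, and 0 of 9 lower. Of all genes, 9.83% were called lower and 10.3% higher there. Results are therefore also given without the 5 arrays that earlier work on these data had marked for skin or liver RNA (undernourished CR replicate 2, undernourished AL replicate 3 and control AL replicates 1 to 3), called the 5 marked arrays here.

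Calorie restriction went with lower transcript of Odc1, the first enzyme of synthesis, and of Sat1, the first enzyme of breakdown, whatever the dam's diet. In undernourished offspring, limma called 2 of the 8 genes lower and 0 higher (CR against AL, Benjamini-Hochberg adjusted p under 0.05 over all genes), where 9.83% of all genes were called lower and 10.3% higher. In control offspring the same 2 genes were called lower and 0 higher, where 15.1% of all genes were called lower and 16.8% higher. The median difference over the 8 genes was -0.26 log2 units in undernourished offspring and -0.15 in control offspring, beside medians of -0.0037 and 0.06 over all genes. The 10 muscle fibre markers had medians of -0.29 and -0.15 in the same comparisons, with 2 and 1 of them called lower. The other 6 genes passed in neither comparison.

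**Figure D1:**
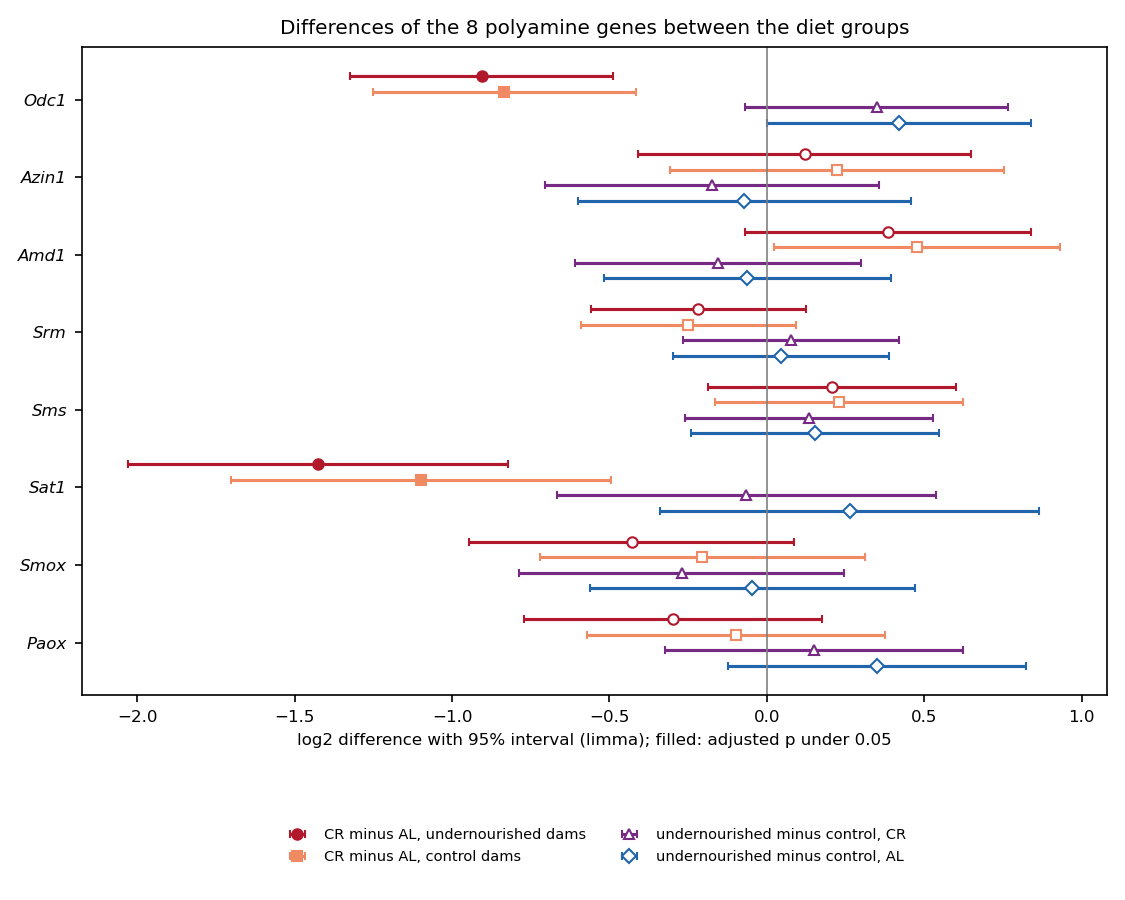
Log2 difference of each of the 8 genes in 4 comparisons (limma, horizontal axis; bars are 95% intervals, filled symbols have an adjusted p under 0.05). Odc1 and Sat1 stand to the left in both CR minus AL comparisons, at -0.91 and -0.83 and at -1.43 and -1.10, and no symbol is filled for maternal diet.

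Odc1 lies at chr12:17544808-17551502 (GRCm38.p6). Its signal was 5.02, 5.46, 4.96 and 5.04 on the undernourished CR arrays, against 5.83, 5.61, 6.32 and 6.34 on the undernourished AL arrays. Every CR array of undernourished offspring lay below every AL array. It was 4.48, 5.01, 4.70 and 4.89 on the control CR arrays, against 5.39, 5.34, 5.83 and 5.85 on the control AL arrays, again with no overlap. Across both maternal diets there was overlap: undernourished CR replicate 2 lay above control AL replicates 1 and 2. Odc1 fell by 0.91 ± 0.20 log2 units in undernourished offspring, a level 1.87-fold lower on CR arrays (limma adjusted p = 0.00568). It fell by 0.83 ± 0.20 in control offspring, 1.78-fold lower (limma adjusted p = 0.0049). As in any bulk sample, fewer cells of a type and less transcript per cell cannot be told apart here.

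The bases just before the annotated start of Odc1 and Sat1 are shown because these are the genes that passed the test in both comparisons; sequences are RefSeq's, build GRCm38.p6, read 5′ to 3′ on the gene's strand. The Odc1 stretch is chr12:17544623-17544807 (plus strand, 185 bases) and the Sat1 stretch is chrX:155216450-155216699 (minus strand, 250 bases). Capitals mark matches, on either strand, to a GC box (GGGCGG), an E-box (CACGTG), a FoxO motif (GTAAACA) or a steroid receptor half-site (AGAACA), and no matches overlap.
Odc1: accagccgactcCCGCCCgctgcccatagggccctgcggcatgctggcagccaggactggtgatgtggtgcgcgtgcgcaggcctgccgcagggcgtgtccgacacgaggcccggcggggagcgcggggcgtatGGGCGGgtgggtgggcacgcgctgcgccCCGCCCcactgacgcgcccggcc
Sat1: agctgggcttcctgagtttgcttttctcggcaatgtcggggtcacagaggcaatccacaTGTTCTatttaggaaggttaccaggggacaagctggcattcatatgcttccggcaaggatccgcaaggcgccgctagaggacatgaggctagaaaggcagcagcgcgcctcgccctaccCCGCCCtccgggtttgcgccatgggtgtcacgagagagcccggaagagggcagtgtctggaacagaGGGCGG
The Odc1 stretch holds 3 GC box matches, and 21.8% of 32851 RefSeq windows of the same length hold at least 1. The windows were matched in length only and need not end at an annotated start. The Sat1 stretch holds 2 GC box matches (32.7% of windows of its length hold the motif) and 1 half-site match, printed as TGTTCT (16.1% of windows). Neither stretch holds the letters of the E-box or the FoxO motif, which 3.9% and 2.4% of windows of the Odc1 length hold, and 6.0% and 3.2% of windows of the Sat1 length. The half-site was not found in the Odc1 stretch (12.3% of windows). A match describes letters and is not a shown binding site.

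A further Odc1 probe followed the first over the 16 arrays (r = 0.923). It gave -0.77 ± 0.23 in undernourished offspring (limma adjusted p = 0.0297 over all 32086 probes) and -0.50 ± 0.23 in control offspring (adjusted p = 0.113). Its signals were 0.71, 1.29, 0.57 and 0.60 on undernourished CR arrays against 1.11, 1.15, 2.13 and 1.85 on undernourished AL arrays, and 0.34, 0.55, 0.44 and 0.54 on control CR arrays against 0.54 to 1.24 on control AL arrays. On this probe the highest CR array reached the lowest AL array in either maternal diet, and only the undernourished comparison passed.

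Azin1, which protects Odc1 from antizyme, did not pass in either comparison. Its mean was 0.23 ± 0.32 in undernourished CR and 0.11 ± 0.52 in undernourished AL; it was 0.41 ± 0.27 in control CR and 0.19 ± 0.30 in control AL (SD, n = 4 arrays each). The difference was 0.12 ± 0.25 in undernourished offspring (95% interval -0.41 to 0.65) and 0.22 ± 0.25 in control offspring (-0.31 to 0.75). The undernourished AL arrays were the most spread, with replicate 3 at -0.43 and replicate 4 at 0.82. Its 3 probes correlated with each other at 0.589 to 0.825, and none was called in either comparison.

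**Figure D2:**
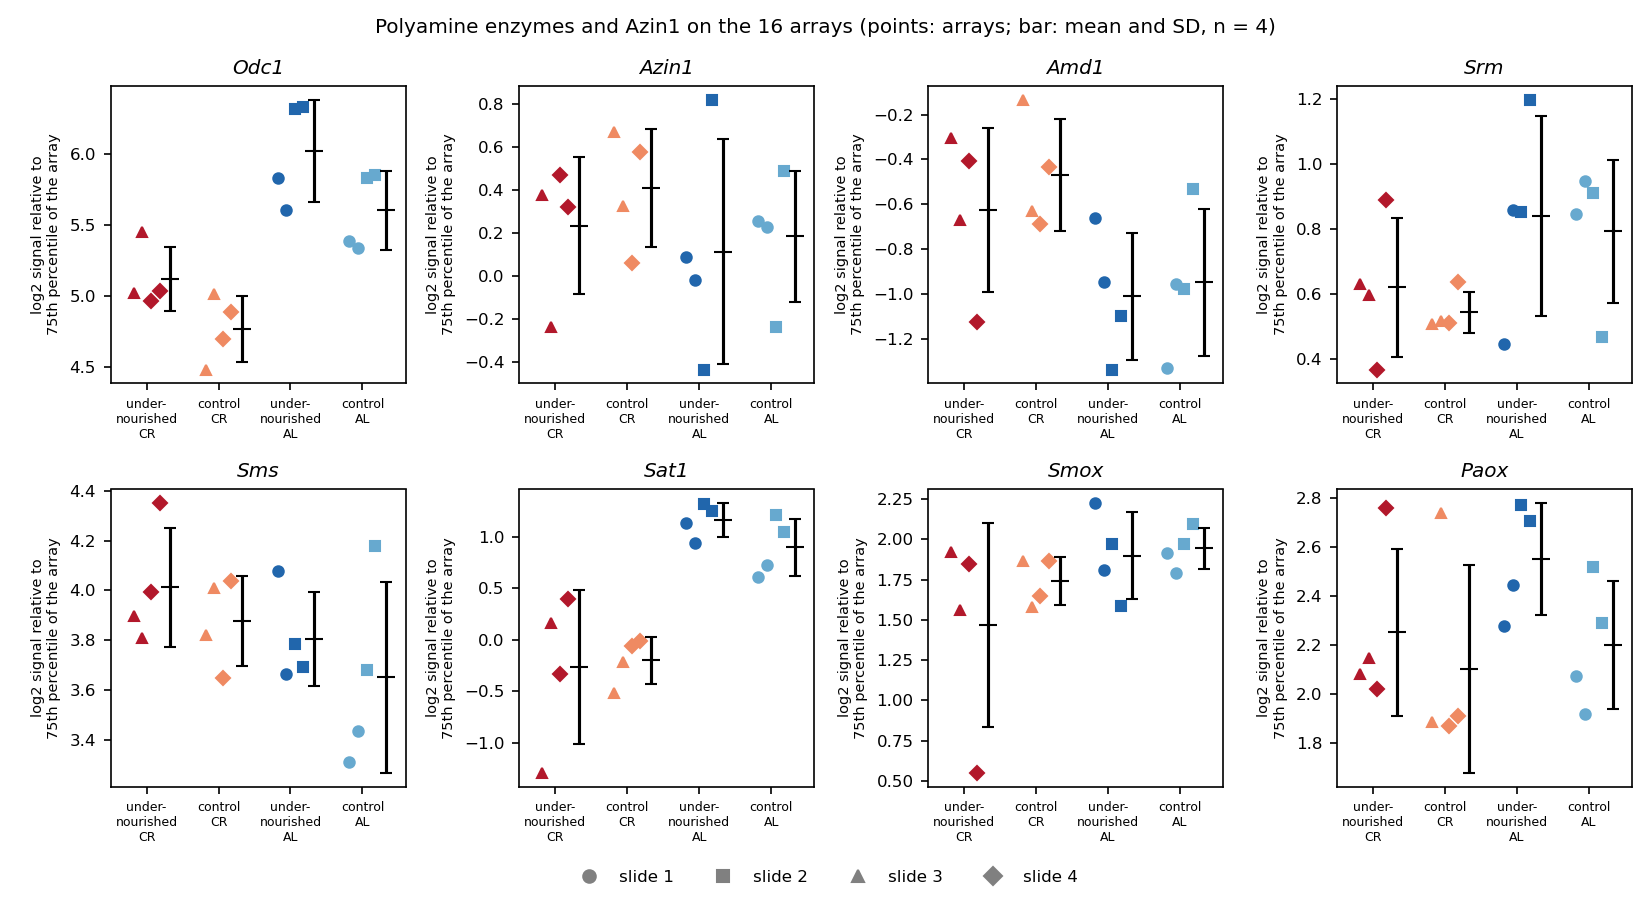
Log2 signal relative to the array's 75th percentile (vertical axis, a separate scale for each gene) on the 16 arrays, by group from undernourished CR to control AL; symbols mark slides and bars are the mean and SD of 4 arrays. For Sat1 all 8 CR arrays lie below all 8 AL arrays, and for Odc1 they do so within each maternal diet.

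The enzymes that build spermidine and spermine did not pass the test. Amd1, which makes the aminopropyl donor, averaged -0.63 ± 0.37 in undernourished CR and -1.01 ± 0.28 in undernourished AL; it averaged -0.47 ± 0.25 in control CR and -0.95 ± 0.33 in control AL (SD, n = 4 each). Its difference was 0.38 ± 0.21 in undernourished offspring (limma adjusted p = 0.217) and 0.48 ± 0.21 in control offspring (adjusted p = 0.101). Its sign was opposite to that of Odc1 in both comparisons. Control AL replicate 4, at -0.53, was the highest array of its group, and without it the control difference was 0.62 (limma adjusted p = 0.0375). Without control AL replicates 1 and 2 it was 0.28 (0.476), with a brain index as a covariate 0.24 (0.59), and without the 5 marked arrays 0.06 (0.932), so the Amd1 difference in control offspring rested on which control AL arrays were used. The probe for Amd2, a near-identical copy of Amd1 in the mouse genome, gave -0.42 ± 0.28 in undernourished offspring and -0.33 ± 0.28 in control offspring (adjusted p = 0.313 and 0.391). The probe sequences are not used here, so how far the Amd1 and Amd2 probes detect each other's transcript is uncertain.

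Srm, which makes spermidine from putrescine, gave -0.22 ± 0.16 in undernourished offspring (95% interval -0.56 to 0.12) and -0.25 ± 0.16 in control offspring (-0.59 to 0.09). Its means were 0.62 ± 0.21 in undernourished CR and 0.84 ± 0.31 in undernourished AL, with 0.54 ± 0.06 in control CR and 0.79 ± 0.22 in control AL (SD, n = 4 each). On 3 of the 4 control AL arrays Srm lay between 0.85 and 0.95, above all control CR arrays, while replicate 4 was at 0.47.

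Sms, which makes spermine from spermidine, gave 0.21 ± 0.18 in undernourished offspring (limma adjusted p = 0.457) and 0.23 ± 0.18 in control offspring (adjusted p = 0.375). Its means were 4.01 ± 0.24 in undernourished CR and 3.81 ± 0.19 in undernourished AL, with 3.88 ± 0.18 in control CR and 3.65 ± 0.38 in control AL (SD, n = 4 each). The control AL arrays spread from 3.31 to 4.18, more widely than those of the other groups. Without control AL replicates 1 and 2, the arrays richest in brain transcripts, the control difference was -0.05. A further Sms probe gave 0.32 ± 0.14 in undernourished offspring and 0.38 ± 0.14 in control offspring (limma adjusted p = 0.121 and 0.0542 over all probes), and correlated with the first at 0.608.

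Sat1, which marks spermidine and spermine for oxidation or export, lies at chrX:155213126-155216449 (GRCm38.p6) and had the largest CR differences of the 8 genes. Its signal was -1.29, 0.16, -0.33 and 0.40 on undernourished CR arrays, against 1.13, 0.94, 1.32 and 1.25 on undernourished AL arrays. It was -0.52, -0.22, -0.06 and -0.01 on control CR arrays, against 0.61, 0.73, 1.21 and 1.05 on control AL arrays. All 8 CR arrays lay below all 8 AL arrays. The undernourished CR arrays were the most spread (SD 0.75, against 0.17 to 0.28 in the other groups). Sat1 fell by 1.43 ± 0.28 log2 units in undernourished offspring, 2.69-fold lower on CR arrays (limma adjusted p = 0.00337), and by 1.098 ± 0.28 in control offspring, 2.14-fold lower (adjusted p = 0.00846).

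The further Sat1 probe showed the same with less spread. Its signal was -1.004, -0.99, -1.11 and -0.44 on undernourished CR arrays, against 0.36, 0.20, 0.81 and 0.65 on undernourished AL arrays. It was -1.47, -0.98, -1.02 and -1.08 on control CR arrays, against -0.06, -0.14, 0.46 and 0.29 on control AL arrays. The differences were -1.39 ± 0.19 in undernourished offspring and -1.28 ± 0.19 in control offspring (limma adjusted p = 0.000285 and 0.000219 over all probes), and the 2 probes correlated at 0.910.

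The oxidases did not pass. Smox, which turns spermine back into spermidine, averaged 1.47 ± 0.63 in undernourished CR and 1.90 ± 0.27 in undernourished AL, with 1.74 ± 0.15 in control CR and 1.94 ± 0.13 in control AL (SD, n = 4 each). Undernourished CR replicate 4 stood at 0.55, against 1.56 to 2.22 on the other 15 arrays. The difference was -0.43 ± 0.24 in undernourished offspring (95% interval -0.95 to 0.09) and -0.20 ± 0.24 in control offspring (-0.72 to 0.31). Paox, which oxidises the acetylated polyamines, averaged 2.25 ± 0.34 in undernourished CR and 2.55 ± 0.23 in undernourished AL, with 2.10 ± 0.43 in control CR and 2.20 ± 0.26 in control AL. Its difference was -0.30 ± 0.22 in undernourished offspring (-0.77 to 0.17) and -0.10 ± 0.22 in control offspring (-0.57 to 0.37). A single array of either CR group carried a high Paox value, 2.76 in undernourished CR replicate 4 and 2.74 in control CR replicate 2, on both Paox probes, whose correlation was 0.959.

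The falls of Odc1 and Sat1 did not get smaller when the arrays with the most brain transcripts were set aside. The AL arrays left still had brain marker medians of -2.45 to -1.46 (undernourished) and -1.61 and -1.95 (control replicates 3 and 4). On CR arrays these medians were -6.67 to -5.91. Brain transcripts thus still followed offspring diet, and their share in these falls was not tested. With a brain index as a covariate, Odc1 and Sat1 gave -0.96 and -1.48 in undernourished offspring (limma adjusted p = 0.00178 and 0.00205) and -1.15 and -1.39 in control offspring (0.0059 and 0.0222). Without control AL replicates 1 and 2 the control values were -1.07 and -1.33 (0.00704 and 0.0217). Without the 5 marked arrays, which leaves a single control AL array assumed to vary like the other groups, they were -1.08 and -1.25 and neither passed (0.0619 and 0.165); the undernourished values were then -0.92 and -1.52 and passed (0.0182 and 0.0222).

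The calls also depended on background treatment and scaling. Under normexp background correction Sat1 passed in both comparisons and Odc1 in neither (-0.99, adjusted p = 0.212, in undernourished and -1.10, adjusted p = 0.073, in control offspring). In the authors' deposited log2 values the median of all genes was shifted by 0.24 in undernourished and 0.29 in control offspring, and Odc1 gave -0.31 and -0.41 (limma adjusted p = 0.155 and 0.0545) and Sat1 -0.89 and -0.55 (0.0124 and 0.0926). On those values Amd1 and Sms were called higher in undernourished offspring (0.81 and 0.75) and in control offspring (0.92 and 0.67), and Azin1 in control offspring (0.63, adjusted p = 0.0223). The sign of Odc1 and Sat1 was negative under all 28 alternatives in both comparisons.

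**Figure D3:**
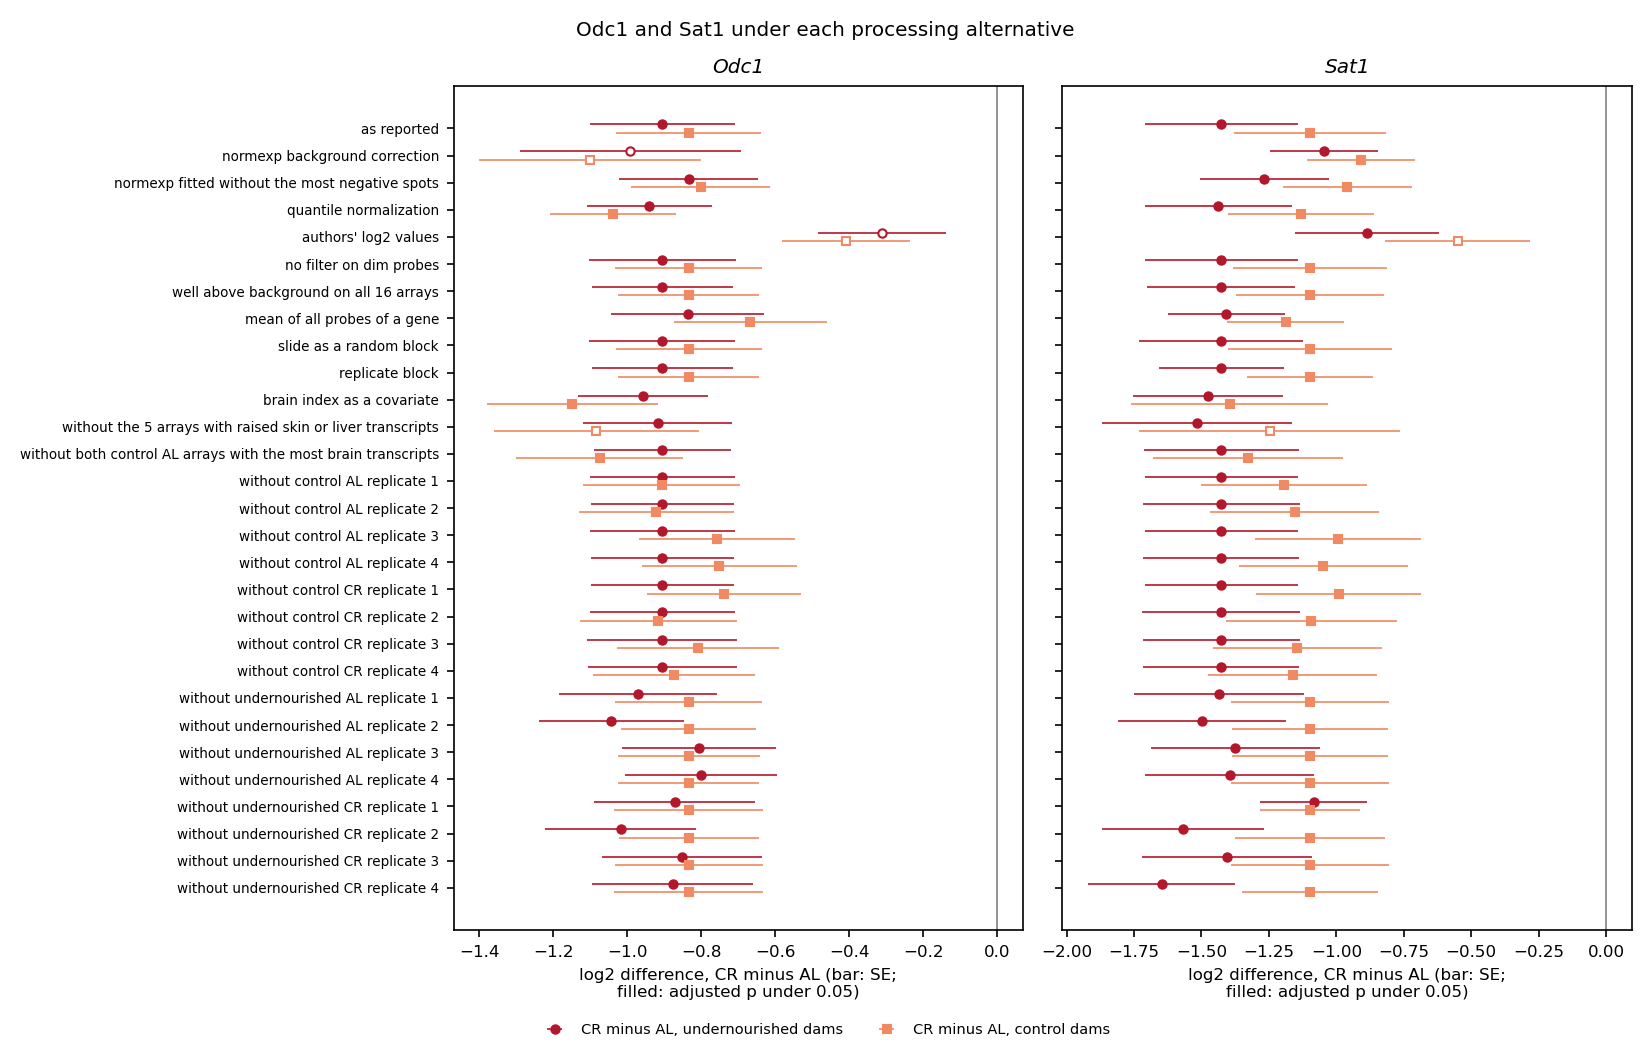
Log2 difference, CR minus AL, of Odc1 (left) and Sat1 (right) under each processing alternative (rows; bars are SE, filled symbols have an adjusted p under 0.05). All points lie left of 0, from -1.15 to -0.31 for Odc1 and from -1.65 to -0.55 for Sat1.

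Around these 8 genes, 42 genes of ornithine and S-adenosylmethionine supply, methylthioadenosine salvage, antizyme control, hypusine formation, polyamine transport and regulation were listed, of which 35 were measured well enough to test. In undernourished offspring 7 were higher and 1 lower on CR arrays, with a median of 0.12, where 10.3% of all genes were called higher and 9.83% lower, with a median of -0.0037. These 7 include Slc22a3, which passed the filter on dim probes (well above background on 4 arrays or more) only through CR arrays. In control offspring 11 were higher and 4 lower, with a median of 0.20, where 16.8% of all genes were called higher and 15.1% lower, with a median of 0.06. The counts of the smaller lists below stand against the same shares, and with 1 to 8 genes a list they single out none of them. In the salvage of methylthioadenosine, the by-product of spermidine and spermine synthesis, 2 of 5 genes rose in undernourished offspring (10.3% of all genes did) and 3 of 5 in control offspring (16.8% of all genes did). Adi1, an acireductone dioxygenase of this route, stood at 1.58 to 1.90 on undernourished CR arrays against 0.59 to 0.93 on undernourished AL arrays, and at 1.65 to 1.75 on control CR arrays against 0.08 to 0.72 on control AL arrays. It rose by 1.03 ± 0.14 in undernourished and 1.18 ± 0.14 in control offspring (limma adjusted p = 0.000313 and 4.88e-05). Enoph1, the enzyme before it, rose by 0.91 ± 0.13 and 0.99 ± 0.13 (adjusted p = 0.000412 and 9.91e-05). Both kept their call under all 28 alternatives in control offspring and lost it only under normexp background correction in undernourished offspring.

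Mat2a, which makes S-adenosylmethionine in tissues other than liver, rose by 0.83 ± 0.17 in undernourished offspring and 1.09 ± 0.17 in control offspring (limma adjusted p = 0.00445 and 0.000377). Its CR arrays, at 5.46 to 5.84 in undernourished and 5.64 to 5.99 in control offspring, lay above the AL arrays at 4.52 to 5.18 and 4.57 to 5.21. Of the 3 genes of S-adenosylmethionine supply, 1 rose in undernourished offspring (Mat2a) and 2 rose in control offspring (Mat2a and Ahcy). Its call was lost under normexp background correction in both kinds of offspring, and in control offspring also without the 5 marked arrays.

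Among the regulators listed, Cdkn1a, which encodes the cell cycle inhibitor p21, fell by 1.49 ± 0.48 in undernourished and 1.61 ± 0.48 in control offspring (adjusted p = 0.0394 and 0.0181). On undernourished CR arrays Cdkn1a was 0.47, 2.16, 0.51 and 2.54, against 2.21, 2.78, 2.99 and 3.65 on undernourished AL arrays, which overlap. On control CR arrays it was 0.30, 1.46, 1.03 and 0.56, against 2.22, 1.80, 3.20 and 2.55 on control AL arrays, which do not. The control call of Cdkn1a was lost without control CR replicate 1 or control AL replicate 3, and under normexp background correction. It was also lost without the 5 marked arrays, which leaves 1 control AL array. The undernourished call was lost without undernourished CR replicate 1 or 3 or undernourished AL replicate 2, 3 or 4. That call was also lost under normexp, in the authors' log2 values, with slide as a random block and without the 5 marked arrays. Myc, a known activator of Odc1, gave -0.49 ± 0.28 and -0.02 ± 0.28 (adjusted p = 0.224 and 0.967).

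Of 8 transport genes tested, 3 were higher in undernourished offspring, and 2 were higher and 1 lower in control offspring, beside 10.3% of all genes higher in undernourished and 16.8% higher and 15.1% lower in control offspring. Slc22a3, an organic cation transporter, was well above background on 3 of 4 undernourished CR arrays and on 0 of 4 undernourished AL arrays, with measured means of -5.40 and -6.85 (limma adjusted p = 0.0324). In control offspring it was well above background on 4 of 4 CR arrays and 0 of 4 AL arrays, with measured means of -5.42 and -6.63 (adjusted p = 0.0502). A level below background is only a bound, so no fold is given. Slc22a3 passed the filter on dim probes only through CR arrays, so its p-values are no evidence of a difference. It is counted among the 3 transport genes called higher in undernourished offspring. The undernourished call was lost without undernourished CR replicate 2, 3 or 4 or undernourished AL replicate 1, 2 or 4, and the fitted difference ranged from -0.24 to 1.87 over 28 alternatives, so its direction also depended on the processing. Of 3 antizymes, 0 were called in undernourished offspring and 1 was higher in control offspring (Oaz2, 0.61 ± 0.19, adjusted p = 0.0209). Hypusine genes gave 0 calls of 4 in undernourished offspring, and in control offspring 1 rose (Eif5a, the protein that carries hypusine, 0.59 ± 0.11, adjusted p = 0.00123) and 1 fell (Eif5a2, -0.42 ± 0.13, adjusted p = 0.0215). Of 5 genes of ornithine supply 0 were called in undernourished offspring and 1 fell in control offspring, the cationic amino acid transporter Slc7a1 (-0.73 ± 0.20, adjusted p = 0.0106). Oaz2, Eif5a2 and Slc7a1 were chosen after their values were seen. They lost their call with the brain index as a covariate and without control AL replicates 1 and 2, while Eif5a kept it. Under normexp background correction Oaz2, Eif5a2, Slc7a1 and Eif5a all lost their call. The same held without the 5 marked arrays, which leaves 1 control AL array. Oaz2 also lost its call without control CR replicate 1 or control AL replicate 1 or 3, and Eif5a2 without control CR replicate 4 or control AL replicate 2. Sat2, the further acetyltransferase measured, did not pass.

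These counts depended on the arrays and the processing used. In undernourished offspring 8 genes were called in all, against 4 or 5 without undernourished CR replicate 1, 2 or 3, or undernourished AL replicate 2, 3 or 4. In control offspring 15 genes were called, against 8 with the brain index or without control AL replicates 1 and 2, and 2 without the 5 marked arrays. Under normexp background correction 0 genes were called in undernourished and 2 in control offspring. Fitted without the spots far darker than their local background, normexp called 15 in undernourished and 21 in control offspring. In the authors' log2 values 22 were called in either. The share of the marker transcripts in these differences was not tested gene by gene.

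**Figure D4:**
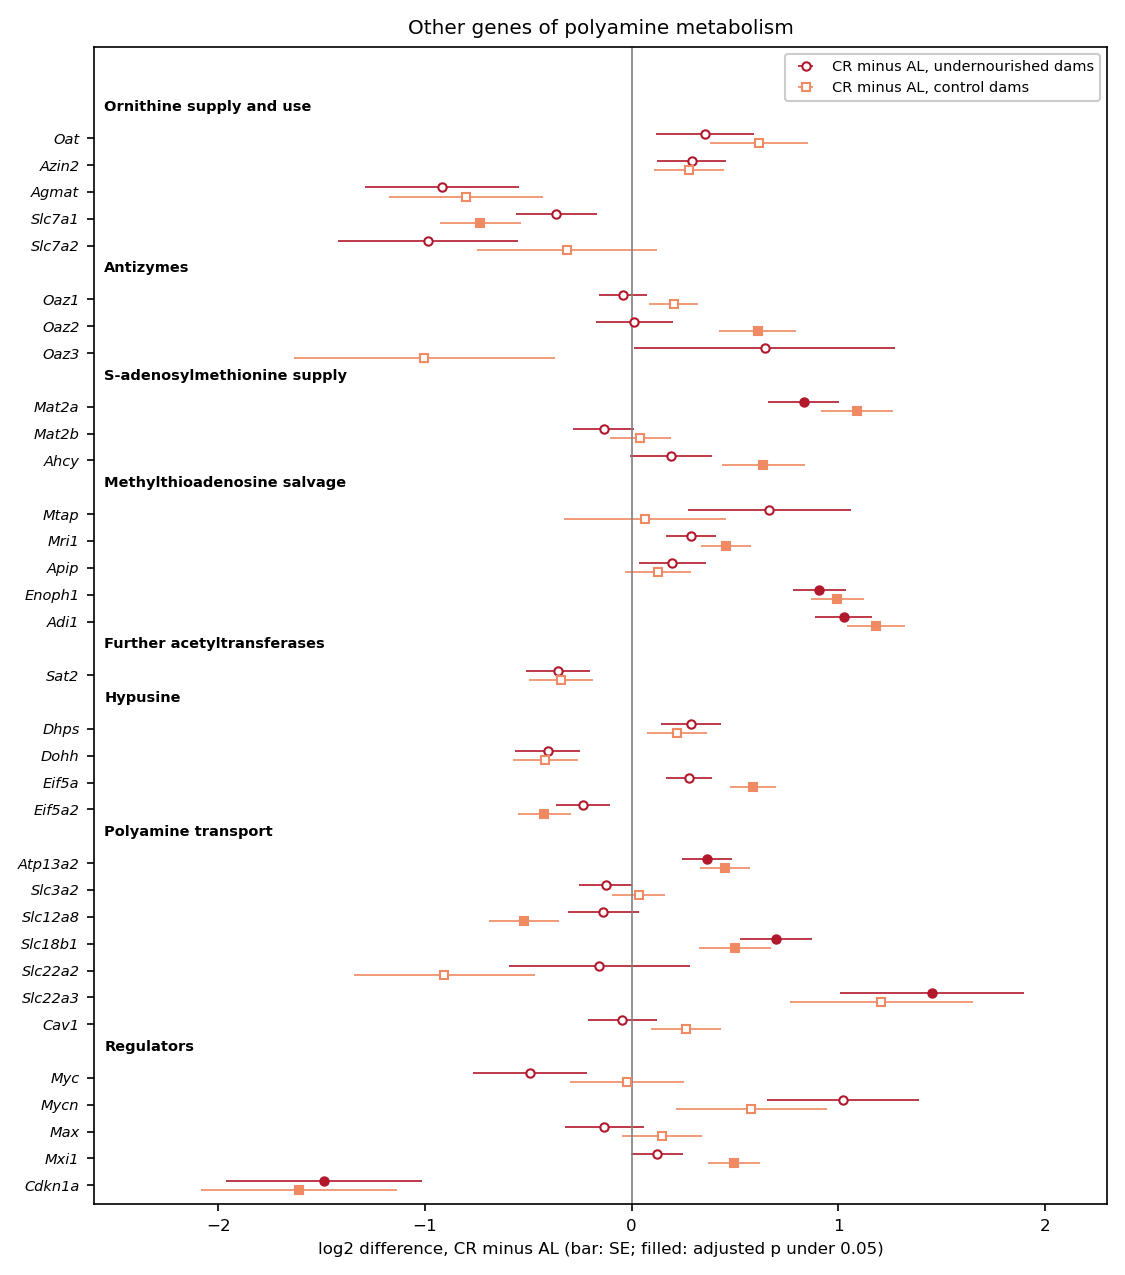
Log2 difference, CR minus AL (horizontal axis), of 33 of the 35 other genes of polyamine metabolism that were tested, grouped by role; bars are SE and filled symbols have an adjusted p under 0.05. Adi1, Enoph1 and Mat2a stand to the right and Cdkn1a to the left in offspring of both kinds of dam.

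Maternal undernutrition was then compared within each offspring diet. None of the 8 genes passed: 0 were called in CR offspring, where 0% of all genes were called and 709 of 24832 had an unadjusted p under 0.05 in limma, and 0 in AL offspring, where 0.0322% were called (8 genes). The median difference of the 8 genes was 0.0061 in CR and 0.0997 in AL offspring, beside -0.0023 and 0.07 over all genes. Of the 35 other pathway genes, 0 were called in either.

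On the probe used for each gene, Odc1 had the largest maternal difference of the 8 genes in either offspring diet. It was higher by 0.35 ± 0.20 in undernourished CR than in control CR (95% interval -0.07 to 0.77, limma adjusted p = 1). It was higher by 0.42 ± 0.20 in undernourished AL than in control AL (95% interval 0.00 to 0.84, unadjusted p = 0.049, adjusted p = 0.261). Within each slide, undernourished minus control was 0.36 on slide 1, 0.48 on slide 2, 0.49 on slide 3 and 0.21 on slide 4, so the sign was the same on all 4 slides, with 2 arrays of either maternal diet on each. With slide as a fixed block the AL difference had a limma adjusted p of 0.0843 (1977 genes, 7.96%, were called in that fit). Same-numbered AL arrays deviated together, and with the replicate number as a block on the 8 AL arrays alone it had an adjusted p of 0.178; 0 genes were called in that limma fit, in place of 8, and 4530 had an unadjusted p under 0.05. Without control AL replicates 1 and 2 it was 0.18, and without the 5 marked arrays 0.07 (adjusted p = 0.985 and 0.991). Paox, at 0.35 ± 0.22 in AL offspring (adjusted p = 0.413), was positive on slides 1, 2 and 4 and negative on slide 3. On the probes used, the other 6 genes lay between -0.07 and 0.26 in AL offspring and between -0.27 and 0.13 in CR offspring. Further probes differed from these in AL offspring. A further Azin1 probe gave -0.69 ± 0.29 (95% interval -1.32 to -0.07, limma adjusted p = 0.204 over all probes), and another gave 0.003 ± 0.23. The further Odc1 probe gave 0.59 ± 0.23 (adjusted p = 0.18).

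The interaction asks whether calorie restriction acted differently after maternal undernutrition. It was not called for any of the 8 genes, where 0.00403% of all genes were (1 gene). The largest was that of Sat1, -0.33 ± 0.40 (95% interval -1.18 to 0.52, limma adjusted p = 0.793), and that of Odc1 was -0.07 ± 0.28 (-0.66 to 0.52). The intervals of Sat1 and Odc1 include differences of about 0.5 log2 units in either direction, and for Sat1 down to -1.18, so equal responses were not shown.

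Slides of the same offspring diet were also compared. They hold different pools of mice, and slide 1 holds the control AL arrays richest in brain transcripts (median brain marker difference 1.90 between the AL slides), so slide, animals and other-tissue RNA cannot be told apart in this comparison. Between AL slides (1 minus 2, maternal diet kept in the fit) 2.28% of all genes were called, and between CR slides (3 minus 4) 1.27%, with 0 of the 8 genes in either. Odc1 stood at 5.54 on slide 1 and 6.09 on slide 2, a difference of -0.54 ± 0.11 (limma adjusted p = 0.0529). It was called under 2 of 15 alternatives, among them the stricter filter on dim probes (adjusted p = 0.0375). Paox (-0.39) and Sat1 (-0.35) were also lower on slide 1 than on slide 2, with adjusted p = 0.103 and 0.141. Between CR slides Odc1 differed by 0.10 ± 0.17 and Sat1 by -0.47 ± 0.31. On the probe used, the Odc1 difference between AL slides was smaller than its CR difference in either maternal diet but of the same order. The further Odc1 probe gave -0.63 ± 0.17 between AL slides (limma adjusted p = 0.0785 over all probes). That was larger in size than its CR difference in control offspring (-0.50), but not in undernourished offspring (-0.77). The Sat1 differences between AL and between CR slides were each smaller than its CR difference in either maternal diet. The further Sat1 probe gave -0.46 ± 0.12 between AL slides (adjusted p = 0.0705) and -0.20 ± 0.17 between CR slides.

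The genes whose values ran most alike with each of the 8 over the 16 arrays are given as a description, since all arrays share the diet and scan day difference. For Odc1 these were Fgd6, Zhx3 and Gtf2a1 (Pearson r = 0.971, 0.948 and 0.942), and for Sat1 Olfr1153, Pip5k1a and Fbxo32, the muscle ubiquitin ligase atrogin-1 (0.938, 0.933 and 0.927). For Amd1 they were Hacd1, Osbpl6 and Map2k4 (0.940, 0.931 and 0.930), and for Sms Dph3, Ankra2 and Pno1 (0.938, 0.915 and 0.914). For Smox they were Atg101, Sh3bgr and Trim12c (0.938, 0.918 and 0.898), and for Paox the histone genes H3c4 and H3c14 with Ubxn4 (0.926, 0.910 and 0.913). Srm (Slc17a5, Serpinb12 and Atp6ap2, 0.832, 0.807 and 0.804) and Azin1 (Cd44, Tctex1d4 and Paqr9, 0.770, 0.748 and 0.743) had less similar neighbours. The 8 genes themselves, and genes without a symbol, were left out of this ranking, so likeness among the 8 was not examined.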

How the data were processed

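Gene expression was measured on 16 one-colour Agilent mouse arrays, each with 200 ng of Cy3-labelled RNA from a pool of mice. Per the file headers, the deposited intensity of each spot is the processed signal of Agilent Feature Extraction 10.5.1.1, corrected for background on each array, with no scaling across arrays. In the deposited files this signal has fewer digits on CR than on AL arrays. The deposited flags mark spots as well above background, saturated or outliers. The authors also deposited log2 values for the same arrays. Each probe's median over arrays was 0 there, and array differences tracked those of the scanner signals (median r 0.956 within and 0.958 between scan days) with slopes of 0.781 and 0.831, so log scale, centring and direction are known, while how they were normalized stays unknown. Column medians for replicates 1 to 4 were 0.0262, 0.0322, 0.0336 and 0.0167 in undernourished CR, 0.0264, 0.0297, 0.0301 and 0.0370 in control CR, -0.0432, -0.0232, -0.0085 and -0.0084 in undernourished AL, and -0.0874, -0.0994, -0.0262 and -0.0037 in control AL.

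From the intensity, control spots and outlier spots (53 to 176 on each array) were removed, spots of a probe were averaged, log2 was taken and each array's 75th percentile (377 to 807) subtracted. The filter required a probe to be well above background in 4 arrays or more (32086 of 41174 probes), and no spots were saturated. Probes were named through RefSeq accessions (GRCm38.p6; 24844 probes matched, 16330 not), and the probe with the highest mean stood for a gene. limma 3.58.1 in R 4.3.3 fitted 1 mean per group over 16 arrays (lmFit, eBayes), two-sided, with Benjamini-Hochberg adjustment over 24832 genes and calls under 0.05; values after ± are standard errors unless marked SD. The procedure was tested on simulated data. In the AL groups all 4 same-numbered pairs of arrays, which share a slide, deviated together (r 0.112 to 0.441), so the numbers pair these arrays from the data, not from the labels. Slides were compared within an offspring diet with maternal diet in the fit.

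The 8 genes, the pathway and marker lists and the alternatives were chosen with earlier results of these data known, so no list is independent evidence. Named were all 8 genes, up to 4 called pathway genes with the largest change per comparison, and the 3 genes most correlated with each of the 8; exceptions are marked, and 2 pathway genes are counted but not reported singly here. Mean foreground signal is not a column of the files, so normexp (offset 50) used spot medians and local background. Alternatives covered background, scaling, the authors' values, filters, probes, slide and replicate blocks, a brain index and left-out arrays.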

Additional observations from a re-analysis of the deposited data

Results flagged for a closer look

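Of 32 sets of 4 arrays (8 genes in 4 groups), 3 had an array whose gap to its nearest neighbour exceeded 0.829 of the group's range; chance alone gives such a gap in about 1 in 20 sets. Odc1 in undernourished CR replicate 2 stood at 5.455, above the 3 other arrays at 4.96 to 5.04 (0.849 of the range), and this array also carried raised skin transcripts. Without it the Odc1 difference in undernourished offspring was -1.02. Srm in control CR replicate 4 stood at 0.6385, above the others at 0.51 to 0.52 (0.945 of a narrow range). Paox in control CR replicate 2 stood at 2.737, above the others at 1.87 to 1.91 (0.954 of the range), and its further probe was also highest on that array, at 2.29 against 1.54 to 1.61.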

How the results depend on the processing

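The number of called genes among the 8, CR against AL, stayed at 2 in most alternatives. In the 16 fits without a single array it was 2 throughout in undernourished offspring and 2 to 3 in control offspring, with Amd1 added without control AL replicate 4. Under normexp background correction it was 1 in undernourished and 1 in control offspring (Sat1). Without the 5 marked arrays it was 0 in control offspring, where 1 control AL array was left. In the authors' values it was 3 in either, but other genes, Odc1 being lost in both and Sat1 in control offspring. Between AL slides it was 1 (Odc1) with the stricter filter on dim probes and 1 with a trimmed normexp fit. That fit was added after seeing the data: the normexp background mean was -591 on undernourished CR replicate 1 and -895 on control CR replicate 4, against -54.5 to 1.72 on other arrays, and 8 and 10 spots far darker than their local background lay on those arrays. Fitted without such spots, both Odc1 and Sat1 were called (adjusted p = 0.00301 and 0.00131 in undernourished, 0.00289 and 0.00433 in control offspring). Counts for maternal diet and its interaction were 0 throughout. Of the values of single genes in the diet comparisons, 1054 kept their sign and their side of the threshold, whatever the change in size. Another 85 changed sign without a call in either fit, and 0 changed sign with a call. With the sign kept, 6 newly passed and 7 no longer passed.

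Over all genes, CR against AL gave 4993 calls in undernourished and 7934 in control offspring (2553 and 4177 higher). These were 61 and 529 under normexp, 13172 and 12627 under its trimmed fit (3030 and 4214 higher), 11858 and 13999 in the authors' values (10323 and 11386 higher), and 10037 and 12284 with no filter (2870 and 4284 higher). Quantile normalization gave 5429 and 8818 (3390 and 5549 higher). In control offspring the brain index gave 3630 calls, leaving out control AL replicates 1 and 2 gave 4381, and leaving out the 5 arrays gave 887. With slide as a fixed block, 1977 genes were called for maternal diet in AL offspring in place of 8, and 12 for the interaction in place of 1, none of them among the 8.

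Same-numbered arrays deviated together in the AL groups (4 of 4 pairs over 0.1), where the replicate block on the AL arrays alone, added after seeing this, called 0 of the 8 genes. Other groups share only a number: over all 24 pairs, 6 were over 0.1 (-0.145 to 0.441), and 6 of 16 arrays correlated best with their own number. With the replicate block on all arrays, 2 of the 8 genes were called in undernourished and 2 in control offspring (Odc1, adjusted p = 0.00766 and 0.00648, and Sat1, 0.00226 and 0.00437), with 0 for maternal diet and the interaction. Signal over background limits dim genes, and 4 pools per group limit small differences.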

Other observations

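Amd2, the near-identical copy of Amd1, stood at 3.97 in control AL replicate 4, against 2.36 to 2.76 on the other control AL arrays and 2.15 to 2.98 on the arrays of the other groups. Of the 8 genes, 5 were also highest of their group on that array (Odc1, Azin1, Amd1, Sms and Smox), and Srm was lowest.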
